A study of Mus musculus with 10 samples.

Results

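Focal adhesion and actin linkage genes encode the proteins that couple integrins in the plasma membrane to the actin cytoskeleton. The group described here held 41 of the 47311 genes measured, and its members were chosen by gene symbol. When the group was proposed, Tns1, Bcar1, Actn1, Sorbs3 and Dst were already known to be higher in these libraries with an ASXL2 construct than with the empty vector. The members' differences from the empty vector are therefore given below as a description, without a p-value, and nothing is read from how many passed a threshold. Of the members, 39 had enough counts to be tested. Evl and Myl9 did not.

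The study compared mouse bone marrow cells selected as Lin-Kit+, a population that lacks mature lineage markers and carries the stem cell factor receptor Kit. They carried an empty vector, a construct over-expressing full-length Asxl2 (labelled WT) or a construct over-expressing 1 of 3 mutant forms, numbered 1 to 3, with 2 libraries in each of these 5 groups. ASXL2 is a chromatin-associated protein of the Asxl family. GFP+ cells of all groups were sorted and expanded before polyA RNA was extracted, and the medium was IMDM with FBS and the recombinant mouse cytokines IL3, IL6 and SCF. The labels used here do not give the age or strain of the mice, the changes in the mutants, or a statement that replicate libraries were grown separately. The spread behind the p-values below is that between libraries and could be technical. The labels place each group's 2 libraries in batch 1 and batch 2.

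The label and the deposited name give different mutant numbers for 4 mutant libraries, and different batches for 2 of these (mutant 1 replicate 2 and mutant 3 replicate 1). All 6 mutant libraries were therefore treated as 1 class, and the batch of the deposited name entered the fit as a block. The spread within the mutant class thus also holds any difference between the mutant forms. Member counts, batch differences and the genes called between mutants and full-length Asxl2 are given with and without those libraries. Totals lay between 52422686 and 79320702 estimated counts per library. The batch of the deposited name separated all 10 libraries on the first principal component, which held 41.2% of the variance. Asxl2 itself was at 107 and 111 CPM (counts scaled by library size and composition) with the empty vector and between 790.2 and 1892 CPM in the 8 libraries with a construct.

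An adhesion forms when talin and a kindlin bind the tail of an integrin chain and activate it. Talin, vinculin, the ILK-PINCH-parvin complex and tensins then tie the integrin to actin, while focal adhesion kinase, paxillin and the Cas proteins act as signalling scaffolds. Alpha-actinins, filamin and non-muscle myosin crosslink and pull on the filaments. Mast cells and their progenitors use the same machinery, with blood cell forms of several components, when they bind matrix through integrins.

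Mast cell markers were abundant in every library. The 8 mast cell markers, among them Kit, the protease Cpa3 and the IgE receptor chain Fcer1a, summed to between 56790 and 70990 TPM (a share of transcripts, corrected for their length). Markers of stromal and smooth muscle cells were near 0. All 10 stromal markers averaged under 1 TPM, with Col3a1, Lum and Postn at 0 in every library, and their sum was 0.456 to 0.752 TPM in the empty vector libraries, 0.144 to 0.816 with full-length Asxl2 and 0.111 to 0.751 with the mutants. The 6 smooth muscle markers summed to 2.04 to 3.09 TPM over all libraries, with Des at 0 in every library, and the 6 endothelial markers to 210.1 to 218, 179.6 to 222 and 164.6 to 212 TPM in the same order of groups, with Emcn at 0. Megakaryocyte and platelet markers (10 genes) summed to 1153 to 1983 TPM, monocyte and macrophage markers (7 genes) to 16.8 to 29.6 TPM and neutrophil markers (7 genes) to 0.021 to 2.62 TPM. Single markers moved with the constructs, while the tested markers of a type did not move together. Above the empty vector lay 2 of 4 tested endothelial markers with full-length Asxl2 and 1 with the mutants. For monocytes it was 3 of 6 in each, for megakaryocytes 5 and 6 of 9, and for mast cells 5 of 8 in each. Over all genes tested, 5.07% were called with full-length Asxl2 and 10.8% with the mutants. Egfl7, 1 of 4 tested endothelial markers, was at 1.49 and 1.17 CPM with the empty vector, 3.46 and 2.88 with full-length Asxl2 and 3.18 to 4.47 with the mutants, log2 differences of 1.26 ± 0.17 and 1.49 ± 0.15 (edgeR adjusted p = 0.00192 and 0.000215) that were also called without the batch block. With full-length Asxl2, the platelet gene Gp9 (1 of 9 megakaryocyte markers) and the monocyte gene Cd14 (1 of 6) were higher by 1.54 ± 0.33 and 2.08 ± 0.48 (edgeR adjusted p = 0.0214 and 0.0315). With the mutants, Hdc (1 of 8 mast cell markers) was higher by 1.14 ± 0.28 and the monocyte gene Ccr2 differed by -1.19 ± 0.29 (edgeR adjusted p = 0.0425 and 0.0357). Gp9, Cd14, Hdc and Ccr2 were not called without the block. Only 2 of 10 stromal, 1 of 6 smooth muscle and 1 of 7 neutrophil markers had enough counts to be tested. None of these was called in either comparison, which says little about markers too low to test. The part of these cell types in the members' results was not tested. In bulk RNA, fewer cells of a type and less RNA per cell cannot be told apart.

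The level of the members spanned from under 1 TPM to more than 100 TPM. Averaged over the 10 libraries, 8 members were at 100 TPM or more, 19 between 10 and 100, 7 between 1 and 10, and 7 under 1 TPM. Fermt3, the kindlin of blood cells, was the most abundant at 289.5 TPM (251 to 336 over the libraries). Vasp (222 TPM) and Enah (205 TPM), which extend actin filaments at their barbed ends, came next, and their ranges of 193 to 265 and 185 to 229.8 TPM overlapped. Tln1, the talin that activates integrins, followed at 194 TPM (165 to 249.6), and Zyx, Ilk, Myh9 and Parvg lay between 139 and 161 TPM.

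**Figure D1:**
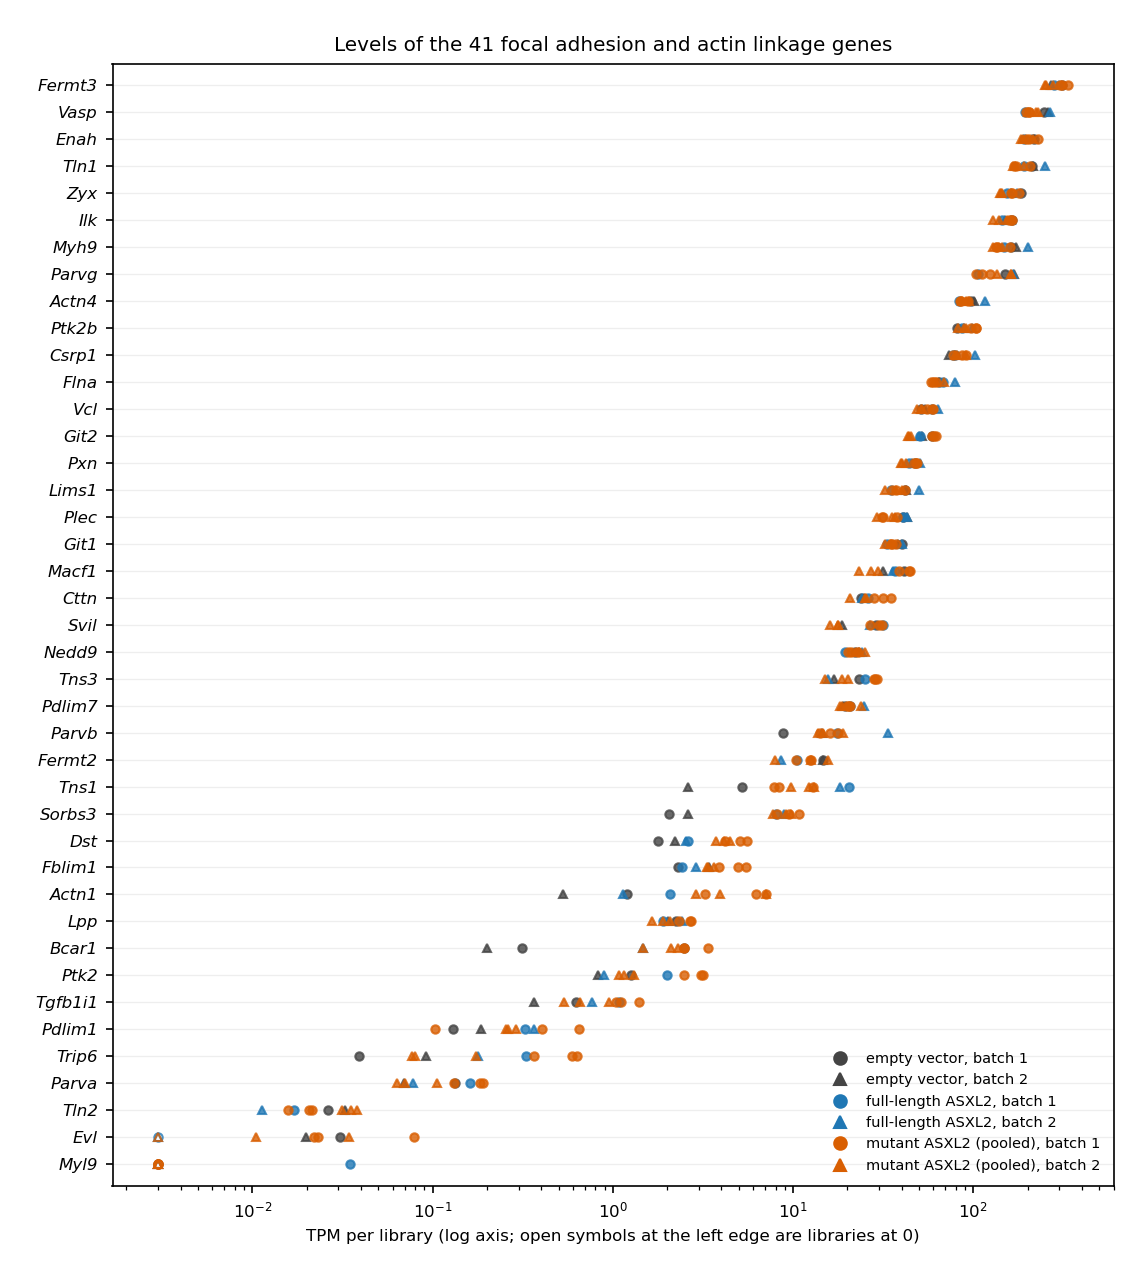
TPM of the members in each library on a log axis, ordered by the mean over the 10 libraries, with 1 point per library coloured by group. Fermt3 leads at a mean of 289.5 TPM, and Tgfb1i1, Pdlim1, Trip6, Parva, Tln2, Evl and Myl9 lie under 1 TPM.

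Within most families, 1 of the listed members carried nearly all of the level that the listed members held. Family shares here and below are of the TPM summed over the members of this group. Relatives outside the group were not counted. Fermt3 made up 96.0% of the kindlin TPM, Actn4 96.3% of the alpha-actinin TPM, Pxn 98.1% of the paxillin TPM and Zyx 96.4% of the zyxin family TPM. Pyk2, the kinase encoded by Ptk2b, made up 98.2% of the focal adhesion kinase family, and its relative Ptk2, which encodes focal adhesion kinase itself, 1.84%. Parvg, the parvin of blood cells, made up 89.0% of the parvin TPM, Parvb 10.9% and Parva 0.0763%. These orders were the same in all 10 libraries. The level was shared more evenly between Git2 (59.3%) and Git1, between Vasp (52.0%) and Enah (48.0%), and between the plakins Plec (48.7%) and Macf1 (46.5%), which link actin to other filaments.

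The comparison with the empty vector is the one the members were chosen with, so the counts here describe the choice and are no test of it. A gene is called where edgeR's quasi-likelihood test over 17810 genes gave an adjusted p under 0.05. With full-length Asxl2, 7 of the 39 tested members were called higher and none lower, beside 5.07% of all genes tested (3.85% higher, 1.22% lower). The 7 were Tns1, Bcar1, Sorbs3 and Dst, which were known to be higher when the group was proposed, and Parvb, Trip6 and Svil. Trip6, with 3 and 2 counts in the empty vector libraries, passed the filter on low counts only through the construct libraries. In the pooled mutants 8 members were called higher, the 5 known ones (Tns1, Bcar1, Actn1, Sorbs3 and Dst) and Parvb, Ptk2 and Tgfb1i1, and Vasp was called lower, beside 10.8% of all genes tested (6.82% higher, 3.99% lower). Both comparisons share the 2 empty vector libraries. The members' median log2 difference from the empty vector was 0.08 with full-length Asxl2 (all genes tested, -0.02) and 0.07 with the mutants (all genes tested, -0.01), and 24 members lay within 0.3 of 0 in both. In TPM, all 8 construct libraries lay above both empty vector libraries for Bcar1, Sorbs3, Tns1 and Dst (4 members; 3.84% of all genes tested) and for no member below both (5.31% of all genes).

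These counts, and which members were called, moved with the fit and with single libraries. With each library left out in turn, the log2 difference with the mutants was 2.33 to 3.13 for Actn1 and 1.05 to 2.23 for Tns1. Without the batch block 3 members (Tns1, Bcar1 and Sorbs3) were called with full-length Asxl2, where 0.752% of all genes were called (0.685% higher, 0.0674% lower), and 5 (those and Actn1 and Dst) with the mutants, where 1.75% were (1.47% higher, 0.275% lower). The counts over all genes fell as well. Leaving out empty vector replicate 1 gave 3 members and 384 genes with full-length Asxl2 (903 genes with all libraries), and 4 members and 494 genes with the mutants (1925 genes with all libraries). Leaving out full-length replicate 1 or 2 gave 3 members and 465 genes, or 2 members and 285 genes, with full-length Asxl2. Without the 4 mutant libraries named differently, 4 members were called in each comparison, of 446 and 567 genes, and Tns1 was in neither.

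**Figure D2:**
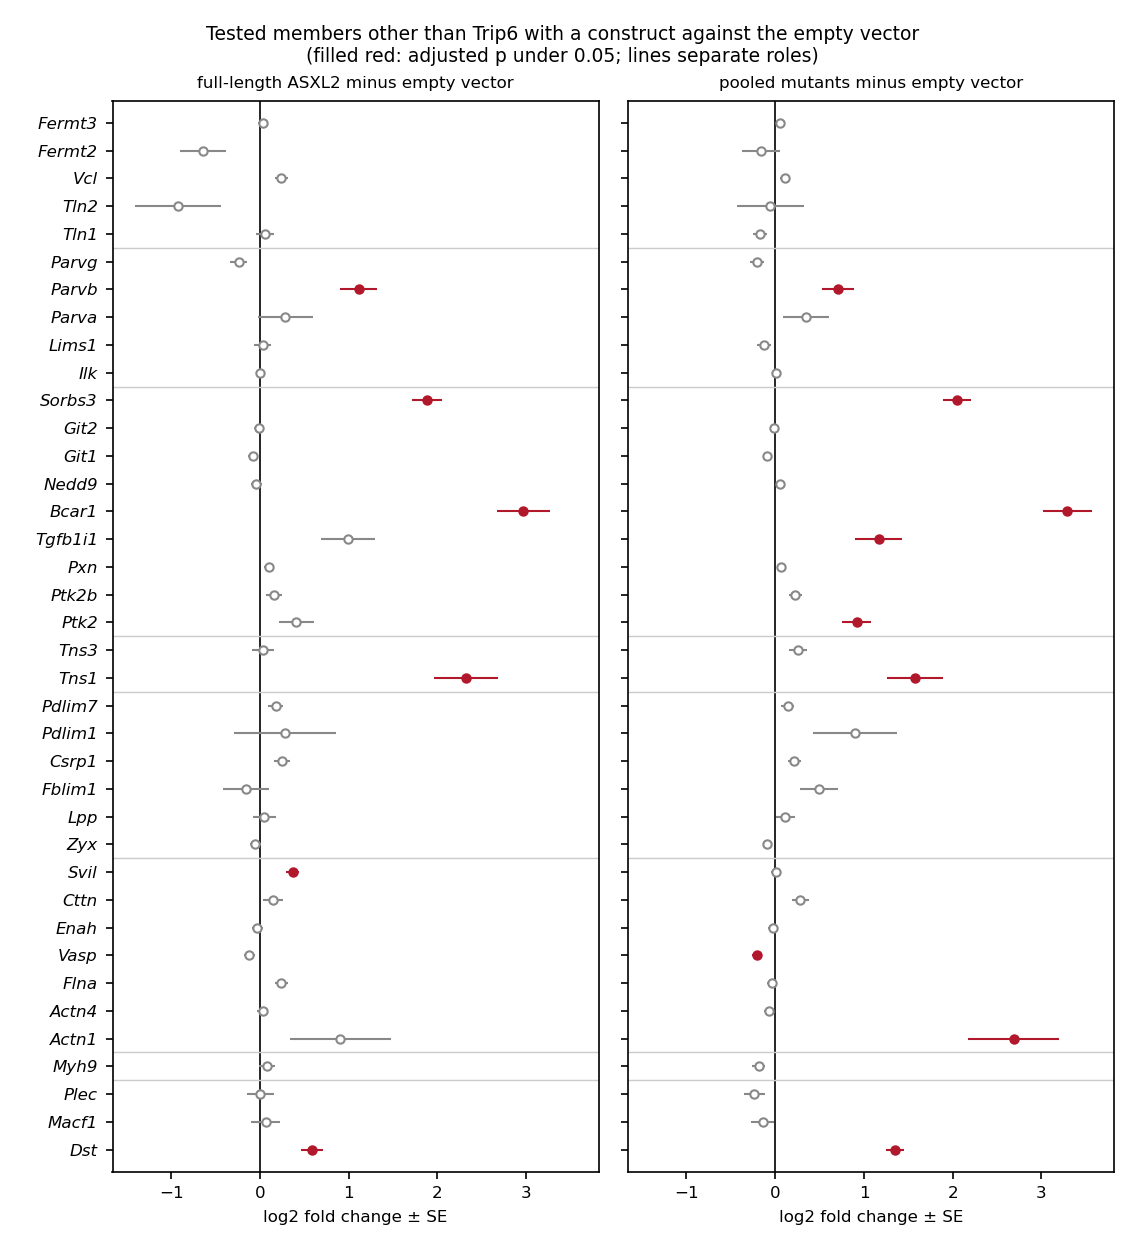
Log2 difference from the empty vector (± SE) of each tested member with full-length Asxl2 (left) and with the pooled mutants (right), grouped by role, without Trip6. Bcar1 (2.97 and 3.29), Sorbs3 (1.88 and 2.05) and Tns1 (2.33 and 1.57) lie far to the right in both panels, and most members lie near 0.

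Among the scaffolds and adaptors, Bcar1 stood furthest from the empty vector. It encodes p130Cas, a docking protein phosphorylated by focal adhesion kinase and Src family kinases, and lies at chr8:111710474-111743809 of GRCm38 on the minus strand. Bcar1 was at 0.678 and 0.496 CPM in the empty vector libraries, at 5.96 and 3.38 CPM in the full-length libraries, and between 3.93 and 7.76 CPM (median 5.47) in the 6 mutant libraries. Every construct library was thus above both empty vector libraries, and the full-length and mutant libraries overlapped. The log2 difference was 2.97 ± 0.30 (SE) with full-length Asxl2 and 3.29 ± 0.28 with the mutants. All of its TPM came from the single deposited transcript Bcar1-201. Its relative Nedd9, the Cas protein of lymphoid cells, was far more abundant and did not follow it, at 70.0 and 83.5 CPM with the empty vector, 67.9 and 81.1 with full-length Asxl2 and 67.4 to 91.7 (median 81.7) with the mutants. The share of Bcar1 in the Cas family TPM was 0.86 to 1.39% with the empty vector, 5.73 to 11.3% with full-length Asxl2 and 5.96 to 14.4% with the mutants.

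Sorbs3 encodes vinexin, an adaptor that binds vinculin, and lies at chr14:70180468-70211989 on the minus strand. It was at 4.05 and 5.87 CPM with the empty vector, 17.7 and 18.7 CPM with full-length Asxl2 and 16.2 to 23.1 CPM (median 20.9) with the mutants. The construct libraries lay close together and apart from both empty vector libraries. The log2 difference was 1.88 ± 0.17 with full-length Asxl2 and 2.05 ± 0.15 with the mutants. Vinculin itself, encoded by Vcl, was at 187 and 224 CPM with the empty vector, 239 and 247 with full-length Asxl2 and 215 to 240.4 with the mutants. The full-length libraries lay above both empty vector libraries, and the mutants overlapped both groups.

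Ptk2 and Tgfb1i1 were low in all groups. Ptk2 was at 3.86 and 2.89 CPM with the empty vector, 6.77 and 2.92 with full-length Asxl2, and 4.10 to 9.99 (median 6.22) with the mutants. The highest Ptk2 values were those of batch 1, and full-length replicate 2 lay among the empty vector libraries. The log2 difference of Ptk2 with the mutants was 0.92 ± 0.17 with the block. Tgfb1i1, which encodes the paxillin relative Hic-5, was at 0.810 and 0.511 CPM with the empty vector, 1.82 and 0.879 with full-length Asxl2 and 0.825 to 2.32 (median 1.54) with the mutants, a log2 difference of 1.17 ± 0.26 with the mutants. Their abundant relatives differed by less. Ptk2b was at 203 and 261 CPM with the empty vector, 242 and 273 with full-length Asxl2 and 243 to 295 (median 270.0) with the mutants. Pxn, the central adaptor paxillin, was at 89.9 and 97.2, at 97.0 and 103, and at 95.3 to 102 CPM (median 98.3) in the same order. Git1 and Git2, which bind paxillin and regulate Arf GTPases, stayed within 0.09 log2 units of the empty vector.

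The tensin Tns1, which binds integrin tails and actin, lies at chr1:73910231-74124449 on the minus strand. Tns1 was at 18.5 and 10.2 CPM with the empty vector, 73.9 and 70.3 CPM with full-length Asxl2 and 32.5 to 55.7 CPM (median 43.5) with the mutants. The 3 classes did not overlap, with the mutants between the others. The log2 difference from the empty vector was 2.33 ± 0.36 with full-length Asxl2 and 1.57 ± 0.31 with the mutants. Within batch 1 these differences were 1.99 and 0.96, and within batch 2 they were 2.77 and 2.29, on log2(CPM + 0.1). Transcript Tns1-217 held 44.4% of the gene's TPM, with means of 1.80 TPM (empty vector), 8.60 TPM (full-length) and 4.72 TPM (mutants). Tns3, the more abundant tensin, was at 122.5 and 101 CPM, at 147 and 87.5, and at 98.0 to 160 (median 138) in the same order of groups, without separating them. Tns1 made up 13.5 to 18.2% of the tensin TPM with the empty vector, 44.9 to 53.8% with full-length Asxl2 and 21.7 to 40.9% with the mutants.

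Actn1, an alpha-actinin that crosslinks actin filaments, lies at chr12:80167547-80260371 on the minus strand. Its level was 2.92 and 1.42 CPM with the empty vector, 5.25 and 2.77 CPM with full-length Asxl2 and 7.99 to 19.3 CPM (median 13.1) with the mutants. The full-length libraries overlapped the empty vector libraries, and all 6 mutant libraries were above both. The log2 difference was 0.91 ± 0.57 with full-length Asxl2 and 2.69 ± 0.52 with the mutants. Actn1-201 held 73.9% of the TPM and Actn1-202 the other 26.1%. Actn4, the abundant alpha-actinin, was at 239 and 266 CPM with the empty vector, 227.5 and 291 with full-length Asxl2 and 206 to 274 (median 241.5) with the mutants, and these ranges overlapped.

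Dst encodes dystonin, a large plakin that links actin, microtubules and intermediate filaments, and lies at chr1:33908225-34308661 on the plus strand. Dst was at 7.65 and 10.2 CPM with the empty vector, 12.6 and 14.3 CPM with full-length Asxl2 and 20.6 to 24.4 CPM (median 22.8) with the mutants. No library of one class reached the range of another, and the mutants were the highest. The log2 difference from the empty vector was 0.59 ± 0.12 with full-length Asxl2 and 1.35 ± 0.10 with the mutants. Transcript Dst-204 held 42.9% of the TPM, with means of 0.859, 1.05 and 1.97 TPM in the 3 classes. The 776-base Dst-208 held 18.7%, at 0.467, 0.561 and 0.787 TPM, and the 16340-base Dst-215 held 15.3%, at 0.278, 0.427 and 0.693 TPM. For each of these transcripts the single empty vector and full-length libraries overlapped. With the batches pooled, the ranges of the other plakins overlapped between classes. Macf1 was at 168 and 196 CPM, at 186 and 197, and at 138 to 198 (median 168), and Plec at 416 and 483, at 451.5 and 445.5, and at 327.5 to 476 (median 360.1). Within batch 2 the Macf1 mutants (138 to 157.5 CPM) lay below the empty vector and full-length libraries, and within batch 1 they did not. The Plec mutants lay below the empty vector library within each batch, at 327.5 to 380.5 CPM in batch 1 and 339.7 to 476 CPM in batch 2.

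In the ILK-PINCH-parvin complex, which joins integrin tails to actin, Parvb was the member that was called. Parvb lies at chr15:84232043-84315688 on the plus strand, next to Parvg at chr15:84324026-84342978 on the same strand. It was at 15.1 and 29.2 CPM with the empty vector, 38.4 and 56.3 CPM with full-length Asxl2 and 29.1 to 38.0 CPM (median 36.1) with the mutants. The lowest mutant library met the higher empty vector library, and within batch 2 the mutants' difference was 0.33 on log2(CPM + 0.1) against 1.15 within batch 1. The log2 difference with the block was 1.11 ± 0.21 with full-length Asxl2 and 0.71 ± 0.18 with the mutants. Parvg was at 240.2 and 316 CPM with the empty vector, 188.5 and 292 with full-length Asxl2 and 173 to 324.5 (median 244) with the mutants. Its log2 differences were -0.24 ± 0.10 and -0.21 ± 0.08. Within batch 1 the full-length and mutant libraries all lay below the empty vector library, and within batch 2 the mutants (287 to 324.5 CPM) spanned it. Parva had 19 to 59 counts in each library. The pseudokinase Ilk and the PINCH protein Lims1 differed from the empty vector by at most 0.12 log2 units in either comparison.

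Trip6, a zyxin relative, was close to the detection limit. Its libraries held 3 and 2 counts with the empty vector, 39 and 16 with full-length Asxl2 and 13, 18, 37, 9, 8 and 6 with the mutants, so no fold is given. It passed the filter on low counts only through the construct libraries. Zyx was at 276 and 273 CPM with the empty vector, 255 and 275 with full-length Asxl2 and 246 to 269 with the mutants. Svil, which encodes the actin-binding protein supervillin, was at 105 and 76.8 CPM with the empty vector, 128 and 104 with full-length Asxl2 and 74.2 to 112 (median 89.1) with the mutants, with the first value of each pair from batch 1. Within each batch the full-length library was the highest of the 5, by 0.29 over the empty vector in batch 1 and 0.44 in batch 2 on log2(CPM + 0.1). Vasp was at 322 and 406 CPM with the empty vector, 283.5 and 389.7 with full-length Asxl2 and 259 to 387 (median 316) with the mutants, a log2 difference of -0.21 ± 0.05 with the mutants. Enah was at 438 and 513, at 440.0 and 489, and at 412 to 509 CPM (median 469).

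Most of the remaining members differed little from the empty vector or were too low to read. Among the integrin activators, Fermt3 was at 543 and 536 CPM with the empty vector, 543 and 557 with full-length Asxl2 and 547 to 588 with the mutants. Tln1 was at 1206 and 1371, at 1192 and 1504, and at 985 to 1351 CPM in the same order. Fermt2, the widely expressed kindlin, was not called and lay lower with full-length Asxl2, at 16.9 and 15.7 CPM against 23.0 and 27.95 CPM, a log2 difference of -0.64 ± 0.26, and the mutants spanned 15.7 to 30.5 CPM. Of the LIM proteins, Csrp1, which binds alpha-actinin, differed by 0.25 ± 0.09 and 0.22 ± 0.07. Pdlim7 and Lpp differed by at most 0.18 in either comparison. Fblim1 differed by -0.15 ± 0.26 and 0.49 ± 0.22. On log2(CPM + 0.1) its difference with the mutants was 1.04 within batch 1 and 0.02 within batch 2. Cttn, the branched-actin regulator cortactin, differed by 0.15 ± 0.11 and 0.28 ± 0.09, and Myh9 by 0.08 ± 0.09 and -0.19 ± 0.07. Tln2 (7 to 32 counts per library) and Pdlim1 (7 to 27 counts) were tested on few counts. Evl, the relative of Vasp, had at most 6 counts in a library, and the myosin light chain gene Myl9 had 1 count in full-length replicate 1 and 0 elsewhere.

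**Figure D3:**
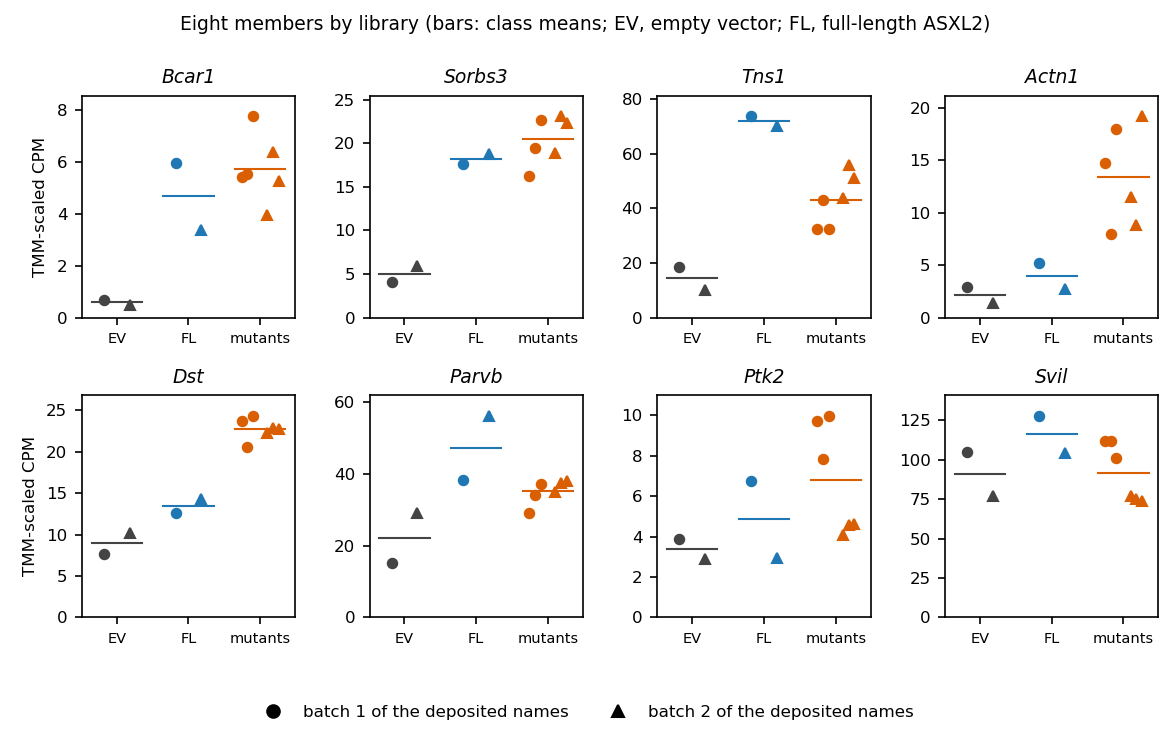
CPM in each of the 10 libraries for 8 members, picked for display after their values were seen, with 1 point per library, the groups along the horizontal axis the batch of the deposited name marked by the symbol and a line at each class mean. Bcar1 and Sorbs3 separate the empty vector from every construct, Tns1 is highest in the full-length libraries (73.9 and 70.3 CPM) and Dst highest in the mutants (20.6 to 24.4 CPM).

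Promoters are shown for the 4 members called higher with a construct that have a matched window within which a deposited transcript starts. Vcl is shown because it holds motifs of the serum response factor and TEAD proteins, which control many adhesion genes. RefSeq promoter windows on GRCm38.p6 were matched for 31 of the 41 members. The 250 bases before the RefSeq start are shown 5′ to 3′ in the direction of transcription, in lower case, with motif matches in capitals. These 5 were chosen after the values were seen.
Bcar1, chr8:111743850-111744099 (minus strand): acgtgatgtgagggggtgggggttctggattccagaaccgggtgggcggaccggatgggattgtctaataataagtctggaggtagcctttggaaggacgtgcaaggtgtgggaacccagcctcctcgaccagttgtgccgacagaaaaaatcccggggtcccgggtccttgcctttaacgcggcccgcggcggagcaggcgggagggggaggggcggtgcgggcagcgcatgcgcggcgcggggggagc
Actn1, chr12:80260364-80260613 (minus strand): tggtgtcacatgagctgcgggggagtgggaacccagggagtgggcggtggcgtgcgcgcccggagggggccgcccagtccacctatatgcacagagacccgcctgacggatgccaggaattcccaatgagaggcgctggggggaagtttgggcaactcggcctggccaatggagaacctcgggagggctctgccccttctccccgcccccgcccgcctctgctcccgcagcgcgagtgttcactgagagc
Parvb, chr15:84231793-84232042 (plus strand): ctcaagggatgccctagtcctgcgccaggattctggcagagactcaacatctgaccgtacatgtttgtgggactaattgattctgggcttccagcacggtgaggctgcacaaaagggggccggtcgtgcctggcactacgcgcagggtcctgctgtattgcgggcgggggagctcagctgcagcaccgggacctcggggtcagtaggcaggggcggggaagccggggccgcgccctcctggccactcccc
Trip6, chr5:137314242-137314491 (minus strand): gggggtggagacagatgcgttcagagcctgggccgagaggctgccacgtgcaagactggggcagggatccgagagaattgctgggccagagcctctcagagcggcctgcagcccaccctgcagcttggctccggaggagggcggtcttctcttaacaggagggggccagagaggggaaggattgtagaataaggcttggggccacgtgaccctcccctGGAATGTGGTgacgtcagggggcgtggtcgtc
Vcl, chr14:20929148-20929397 (plus strand): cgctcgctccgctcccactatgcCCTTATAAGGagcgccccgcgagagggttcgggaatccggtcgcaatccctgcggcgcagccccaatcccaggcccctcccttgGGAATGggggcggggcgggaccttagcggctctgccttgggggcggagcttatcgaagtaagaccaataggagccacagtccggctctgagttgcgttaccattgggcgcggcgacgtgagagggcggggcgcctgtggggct
In the Vcl window, the first run of capitals is a CArG box, the serum response factor motif, at bases -227 to -218 from the start, and the second is GGAATG, a TEAD motif, at -143 to -138. In the Trip6 window, the run of capitals is GGAATG at -32 to -27, which overlaps TGTGGT, a core motif of RUNX proteins, at -28 to -23. Trip6-201 and Trip6-204, which start within this window, held 92.8% of the gene's TPM. In the annotation used for summing (GENCODE M21), the 5′ end of Trip6 is base 137314404, inside the printed stretch. These motifs lie after that base, within the annotated gene. The windows of Bcar1, Actn1 and Parvb hold none of these 3 motifs on either strand. Over 32851 windows of this length, 1.47% held a CArG box, 12.6% GGAATG and 14.0% TGTGGT on either strand. Among the 43 windows of members, 3 held a CArG box (Fermt2, Myl9 and Vcl), 9 held GGAATG and 7 held TGTGGT. The 43 windows come from 31 genes and some overlap, so a site can count more than once. Both Ilk windows hold the same TGTGGT site. A difference from the shares over all windows was not tested. The GC content was 65.6% in the Bcar1 window, 68.4% in Actn1, 65.2% in Parvb, 64.4% in Trip6 and 67.2% in Vcl, and the median over all windows was 52.4%. Sorbs3 was not matched, and no deposited transcript of Tns1 or Dst starts within the matched windows of these genes.

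The mutants were also compared directly with full-length Asxl2. Tns1, Bcar1, Actn1, Sorbs3 and Dst were named for their difference from the empty vector, not for this one. The same mutant and full-length libraries enter both, so the p-values of these members, and the count that includes Dst, are no independent test. Earlier results of these data were also known when the group was proposed. In edgeR's quasi-likelihood test, 1 member rose and 1 fell of 39, beside 0.185% and 0.213% of all genes tested (0.399% together), and the median over the members was 0.00 on the log2 scale (0.01 over all genes). Dst rose by 0.77 ± 0.10 (SE, log2; adjusted p = 0.0101), with 6 of 6 mutant libraries above both full-length libraries. The difference was 0.86 within batch 1 and 0.66 within batch 2 on log2(CPM + 0.1). Svil fell by 0.36 ± 0.06 on the log2 scale (edgeR adjusted p = 0.035). The mutant and full-length libraries of Svil overlapped across batches, while within each batch the 3 mutant libraries lay below the full-length one.

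Neither call held without the batch block, where edgeR gave adjusted p = 0.18 for Dst and 1 for Svil. Without the 4 libraries named differently the edgeR adjusted p was 0.139 and 0.283, and without the 2 libraries whose batch differs it was 0.0168 and 0.034. Leaving out full-length replicate 2 ended both calls (edgeR adjusted p = 0.15 and 0.738), full-length replicate 1 that of Dst (0.0729), and mutant 2 replicate 1, mutant 2 replicate 2 or mutant 3 replicate 2 that of Svil (0.0859, 0.0626 and 0.0684). The directions stayed. Over the 19 alternatives Dst lay between 0.62 and 0.81 and Svil between -0.47 and -0.25.

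For other members the mutants and full-length Asxl2 differed in level without passing the threshold in this fit. Actn1 was higher in 6 of 6 mutant libraries than in both full-length libraries, by 1.78 ± 0.47 (log2; edgeR adjusted p = 0.208). Tns1 was lower in 6 of 6, by -0.75 ± 0.26 (edgeR adjusted p = 0.35). Fblim1 was higher in 6 of 6, by 0.65 ± 0.22 (edgeR adjusted p = 0.277). Flna, the actin crosslinker filamin A, differed by -0.28 ± 0.06 (edgeR adjusted p = 0.0763), and Myh9, the heavy chain of non-muscle myosin, by -0.27 ± 0.07 (edgeR adjusted p = 0.153). DESeq2 called 5 members in this comparison, adding Actn1, Flna and Myh9. Bcar1 differed by 0.32 ± 0.21 and Sorbs3 by 0.17 ± 0.13 (edgeR adjusted p = 0.632 and 0.719).

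**Figure D4:**
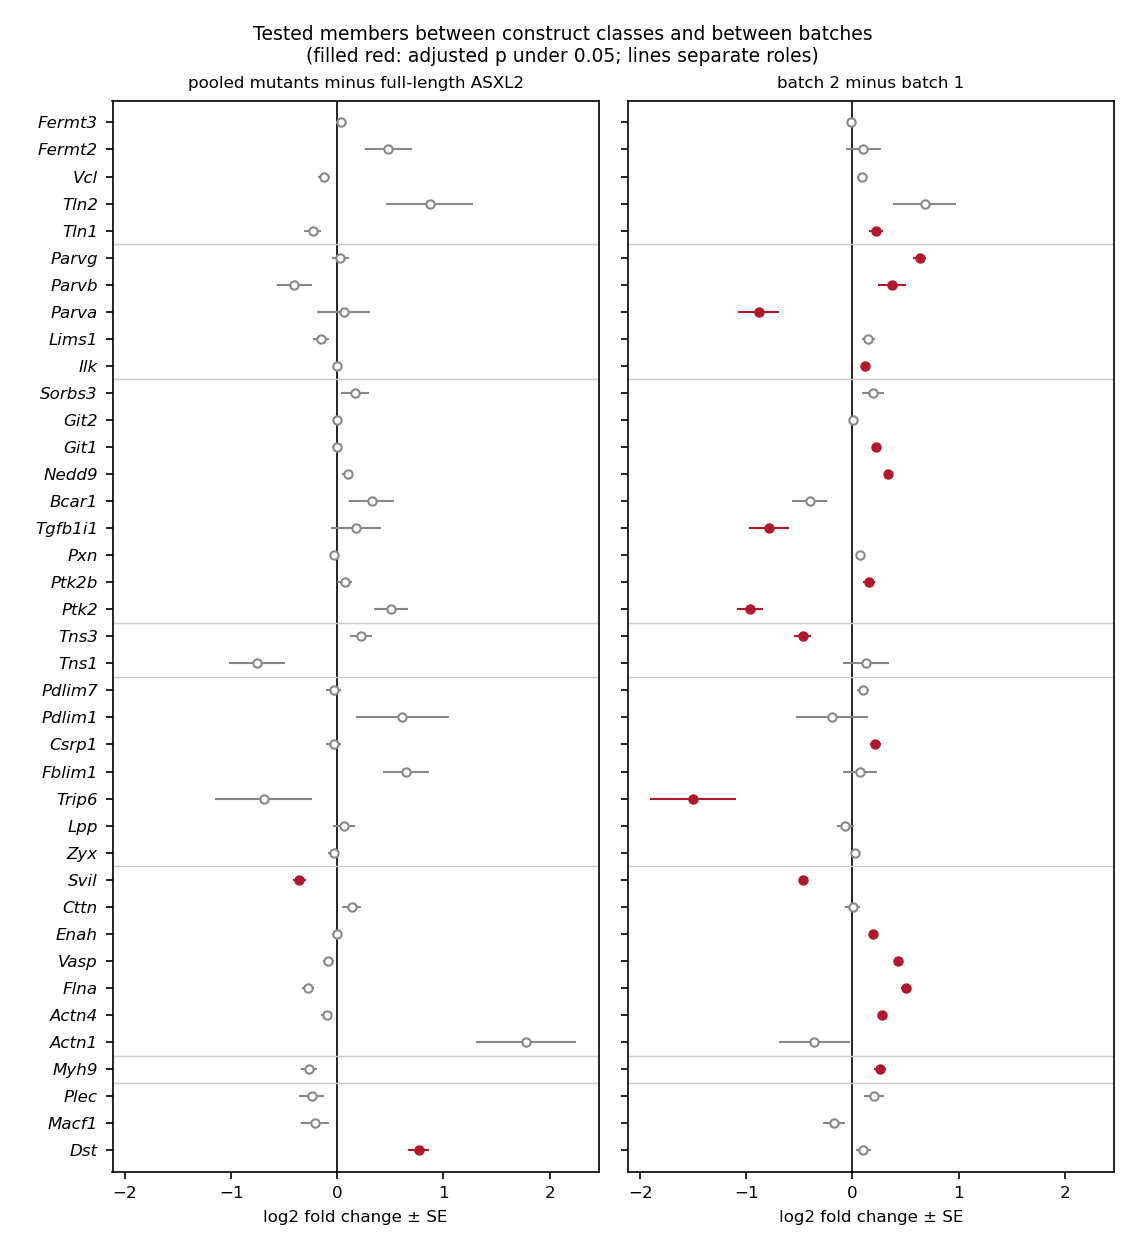
Log2 difference (± SE) of each tested member between the mutants and full-length Asxl2 (left) and between batch 2 and batch 1 of the deposited names (right), grouped by role, with filled points for an adjusted p under 0.05. Dst (0.77) and Svil (-0.36) are filled on the left, and 19 members on the right.

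Between the batches 13 members rose and 6 fell of 39, beside 26.6% and 25.9% of all genes tested (52.4% together). The members' median was 0.10 on the log2 scale, and that of all genes -0.04. In the parvins the changes went in opposite directions. Parvg rose from 173 to 240.2 CPM in batch 1 to 287 to 324.5 CPM in batch 2, without overlap, by 0.63 ± 0.06 (log2; edgeR adjusted p = 2.5e-05). Parva fell by 0.88 ± 0.20 on the log2 scale at its low level (edgeR adjusted p = 0.00321). Ptk2 fell by 0.97 ± 0.12 (edgeR adjusted p = 9.91e-05), with batch 1 at 3.86 to 9.99 CPM and batch 2 at 2.89 to 4.62 CPM. Tns3 fell by 0.47 ± 0.08 (edgeR adjusted p = 0.000942) and Svil by 0.46 ± 0.05 (edgeR adjusted p = 2.82e-05). Tgfb1i1 and Trip6 also fell. These 7 members were called in TPM with limma as well. Without the 4 libraries named differently 14 members were called, of 5268 genes (9338 with all libraries). Parva, Tgfb1i1, Trip6, Tln1, Enah and Myh9 were then not called (edgeR adjusted p = 0.0525, 0.113, 0.0842, 0.197, 0.0534 and 0.0674) and kept their direction. Parvg differed by 0.57 ± 0.06, Ptk2 by -0.89 ± 0.18, Tns3 by -0.43 ± 0.11 and Svil by -0.42 ± 0.07 (edgeR adjusted p = 0.00565, 0.0165, 0.0337 and 0.00907). Without the 2 libraries whose batch differs, 20 members were called and Parvb was not (edgeR adjusted p = 0.0559).

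The other 12 members called between batches rose in CPM but were not called in TPM. Vasp was at 259 to 322 CPM in batch 1 and 354.5 to 406 CPM in batch 2, a rise of 0.43 ± 0.04 (log2; edgeR adjusted p = 2.16e-05). Flna was at 248 to 327 and 358 to 427 CPM, a rise of 0.50 ± 0.05 (edgeR adjusted p = 1.94e-05). Nedd9, Actn4, Myh9, Tln1, Csrp1 and Parvb rose by 0.22 to 0.37 in CPM and kept that sign in TPM. Ilk, Git1, Enah and Ptk2b, which rose by 0.12 to 0.22 in CPM, had the opposite sign on log2(TPM + 1). With limma on that scale the members' median was -0.07. The batch in the deposited name is given without a date or other description.

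The difference between constructs and the empty vector was also compared between batches. edgeR called 0 members and 0% of the 17810 genes tested for this interaction, with 1 member (Parvg) and 1329 genes at an unadjusted p under 0.05. limma on log2(TPM + 1) also called 0 genes, with 790 at an unadjusted p under 0.05. Each batch holds 1 empty vector library, which was assumed to vary like the others.

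Other genes of the pathway were read from lists chosen with earlier results of these data known. Over all genes tested, 3.85% were called higher and 1.22% lower with full-length Asxl2 against the empty vector, 6.82% and 3.99% with the mutants, and 0.185% and 0.213% in the mutants against full-length Asxl2. The list counts below stand beside these shares, and nothing particular to a list is read from them. Each list was also counted without the 4 libraries named differently, which was added after the data were seen. Of 21 tested integrin chains, the receptors of the system, 2 rose and 2 fell with full-length Asxl2, and 2 rose and 4 fell with the mutants, against the empty vector. Without the 4 libraries 2 rose and 0 fell with full-length Asxl2, and 1 rose and 1 fell with the mutants. Itga3, a laminin-binding chain, was called higher in both comparisons but held only 10 and 6 counts with the empty vector, 51 and 30 with full-length Asxl2 and 99, 60, 95, 35, 57 and 71 with the mutants. It passed the filter on low counts through the construct libraries, so no fold is given. Itgb6 fell by 1.31 ± 0.16 on the log2 scale with the mutants (edgeR adjusted p = 0.000715, and 0.0332 without the 4 libraries). Against full-length Asxl2, the mutants were lower in Itgal and Itgb2, the 2 chains of the leukocyte integrin LFA-1. Itgb2 was at 20.1 and 15.1 CPM with the empty vector, 57.5 and 53.2 CPM with full-length Asxl2 and 20.3 to 33.3 CPM with the mutants, a difference of -1.08 ± 0.16 between mutants and full-length (edgeR adjusted p = 0.043, and 0.0392 without the 4 libraries). Itgal differed by -0.94 ± 0.15 (edgeR adjusted p = 0.0364, and 0.408 without the 4 libraries), with batch 1 low in every class. Without the batch block 1 integrin chain was called in each comparison with the empty vector and neither Itgal nor Itgb2 between mutants and full-length.

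Of 45 other tested genes of the adhesion plaque, 3 rose with full-length Asxl2 against the empty vector, and 9 rose and 1 fell with the mutants. Without the 4 libraries 3 rose with full-length Asxl2, and 5 rose and 2 fell with the mutants. Fyn, a Src family kinase, rose by 0.50 ± 0.05 with the mutants (edgeR adjusted p = 0.000226). It was also higher in the mutants than with full-length Asxl2, by 0.28 ± 0.05 (edgeR adjusted p = 0.043, and 0.228 without the 4 libraries). Kank2, which binds talin, rose by 1.57 ± 0.18 and Ppfibp1 by 0.57 ± 0.06 with the mutants (edgeR adjusted p = 0.000683 and 0.000436). Wtip, a LIM protein at 0.276 to 1.39 CPM, was higher in the mutants than with full-length Asxl2 by 1.66 ± 0.30 (edgeR adjusted p = 0.0441, and 0.281 without the 4 libraries). Without the block 1 gene of this list was called in each comparison with the empty vector, and none of these between mutants and full-length.

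Of 15 tested factors and targets of the SRF-MRTF and YAP-TEAD pathways, 1 rose in each comparison with the empty vector, with and without the 4 libraries. Tead3, a DNA-binding partner of YAP, rose by 2.72 ± 0.36 and 2.25 ± 0.32 (edgeR adjusted p = 0.00192 and 0.00181) from 0.452 and 0.336 CPM. Wwtr1 and Yap1, the coactivators, differed with the mutants by 1.68 ± 0.66 and 0.68 ± 0.31 (edgeR adjusted p = 0.164 and 0.204). Of 9 tested genes in the list of matrix ligands, 1 was called with full-length Asxl2. It was Icam1, a cell-surface rather than matrix ligand of LFA-1, which rose by 0.44 ± 0.08 (edgeR adjusted p = 0.0103). Fn1, fibronectin, rose by 1.67 ± 0.45 with the mutants from 0.245 and 0.306 CPM (edgeR adjusted p = 0.04, and 0.187 without the 4 libraries). Lamb1 and Lamb2, laminin chains, differed with the mutants by -0.83 ± 0.50 and 0.71 ± 0.43 (edgeR adjusted p = 0.333 and 0.339). Without the block no gene of either list was called by edgeR in these comparisons.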

How the data were processed

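PolyA RNA of 10 libraries was analysed. The deposited tables give an estimated count and a TPM value per transcript, under the column names kallisto writes, per the file headers. The submitters' processing notes name kallisto, DESeq2 and mm10. Versions, roles, index and strand setting were not given in the sources used here. Reads shared by near-identical or overlapping genes are therefore split by kallisto's estimate.

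The 115088 transcripts were summed per gene through GENCODE M21 (GRCm38), where 114200 (99.2%) matched, with 99.3 to 99.6% of each library's counts. Summed estimated counts were rounded. edgeR 4.0.16 (R 4.3.3) with TMM scaling, its default filter (10 counts, smallest class of 2) and the robust quasi-likelihood test was run on all 10 libraries in 1 fit with 3 classes and the batch of the deposited name, with Benjamini-Hochberg adjustment over 17810 genes. The rule for this gene group set that block. Same-batch libraries of different classes deviated together (r = 0.525, 0.571 and 0.64). Alternatives were no block, the labels' batch, DESeq2 1.42.0 and its size factors, limma 3.58.1 on log2(TPM + 1), other filters (none, or 1 CPM in 4 libraries) and left-out libraries. SEs come from the quasi-likelihood F. Scripts were tested on simulated data. Figures were drawn with matplotlib 3.10.9 (Python 3.11.15, numpy 2.4.6, pandas 2.3.3).

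Members and lists were chosen with earlier results of these data known. Named were all members, Asxl2, and of each other list up to 3 genes with the smallest p in the mutants against the empty vector, with any called between mutants and full-length Asxl2. Icam1 was added after its value was seen. Values per library are given for members called against the empty vector with at least 1 TPM in the higher class, members called between mutants and full-length Asxl2, and their families. Values of other members were added after they were seen. The result of 1 further gene list is not reported here. A comparison of protein sequences had been planned and was not made here. Promoters are from RefSeq.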

Additional observations from a re-analysis of the deposited data

Results flagged for a closer look

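Vcl was at 240.4 CPM in mutant 3 replicate 1, apart from the other 5 mutant libraries, whose highest was 224 CPM. Trip6 was at 0.664 CPM in mutant 2 replicate 1, apart from the other mutant libraries, whose highest was 0.285 CPM, and rests on 37 counts there. These 2 came from 39 groups of mutant libraries tested for a library apart from the rest, and chance marks about 1 in 20. Dst and Svil differed from the empty vector by different amounts with the mutants and with full-length Asxl2, tested as the direct difference between the 2 classes: 0.77 for Dst and -0.36 for Svil on the log2 scale (edgeR adjusted p = 0.0101 and 0.035). Dst was named for its difference from the empty vector in these data, so its p-value is no independent test. Neither call held without the batch block or without the 4 libraries named differently.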

How the results depend on the processing

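With no replicate block, called genes against the empty vector were 134 (members 3) for full-length Asxl2, 311 (5) for the mutants and 0 (0) between mutants and full-length, where edgeR left 720 genes and 5 members at an unadjusted p under 0.05. The block by the labels' batch gave 129 (3), 335 (5) and 1 (0). DESeq2 gave 1517 genes with full-length Asxl2 and 499 (5) between mutants and full-length. limma on log2(TPM + 1) gave 259 (3), 707 (5) and 23 (0), and between batches 10 members with a median of -0.0698. Without the 4 libraries named for another mutant the counts were 446 (4), 567 (4) and 7 (0), and 5268 genes between batches. Between mutants and full-length, 183 genes were called with no filter and 136 without the 2 libraries whose batch differs. Leaving out each library in turn gave 285 to 1047 genes and 2 to 8 members with full-length Asxl2, 494 to 2042 and 4 to 10 with the mutants, and 2 to 111 and 0 to 3 between them. In the last comparison fewer than 48 genes were left without full-length replicate 1 (47) or 2 (2), mutant 1 replicate 1 (41), mutant 2 replicate 1 (24) or 2 (46), or mutant 3 replicate 2 (28). Between batches, 4 members reversed with limma on log2(TPM + 1): Ilk (-0.111), Ptk2b (-0.0698), Git1 (-0.00691) and Enah (-0.0352). The causes were not tested. Members under about 1 TPM rest on few counts, and 2 libraries of the empty vector and of full-length Asxl2 limit every comparison.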
